A study of Mus musculus with 97 samples.

Results

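The mouse mitochondrial genome is represented in the deposited RNA tables by 37 genes, all those whose symbol starts with mt-, out of 37620 genes listed. Of these, 13 encode proteins, 2 encode ribosomal RNAs and 22 encode transfer RNAs. All 37 were measured in 18 libraries of a mouse embryonic stem (ES) cell line in which Sox2, a transcription factor of the pluripotency network, carries an auxin-inducible degron (AID), a tag that lets auxin trigger loss of the protein. The cells had been sorted on Hoechst, a DNA stain, and on GFP into early G1, late G1 and G2. In each phase 3 libraries came from cells given 0.5 mM auxin for 3 h and 3 from cells without auxin, which makes 6 groups. Every group shared the Sox2-AID line, the GFP used for sorting and Hoechst at 20 µM for 20 min. The comparisons with and without auxin address the loss of Sox2 at each stage of the cycle. The RNA was total RNA depleted of ribosomal RNA, and whether the depletion reached the mitochondrial rRNAs is not given in the sources used here, so mt-Rnr1 and mt-Rnr2 are what remained after that step.

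Mitochondrial DNA is a small circular genome kept in many copies per cell. Both strands are transcribed into long precursors by the mitochondrial RNA polymerase Polrmt with the DNA-packaging factor Tfam, and the precursors are cut at the transfer RNAs that separate most genes. Most genes lie on one strand, and mt-Nd6 is the protein gene of the other. The proteins are core subunits of complexes I, III, IV and V of oxidative phosphorylation, which are completed by nuclear-encoded subunits, and they are translated on mitochondrial ribosomes built around mt-Rnr2 and mt-Rnr1. Because genes cut from a common precursor can end at very different levels, RNA processing and decay are as much a part of their regulation as transcription.

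Library totals ran from 24841963 to 37587322 counts. The labelled phases and cell type could be read in their markers. The summed level of 10 G1/S genes was 3010 to 3370 CPM (counts scaled to library size) in late G1 and at most 2500 elsewhere. The sum of 10 G2/M genes was 3880 to 4090 CPM in G2 and at most 1990 elsewhere. The 8 ES cell markers summed to 3570 to 4090 CPM in every library, against 16.0 to 26.2 CPM for 12 fibroblast markers. Averaged over phases, 3 of the 8 were called lower with auxin and 0 higher, where 5.68% of all genes were called. Of the 8, 4 had a positive difference. With the replicate number as a block in the fit, 4 were called lower and 2 higher, beside 24.6% of all genes. Zfp42 differed by -0.34 ± 0.05 (SE) on the log2 scale (edgeR adjusted p = 0.000334) and Nanog by -0.29 ± 0.04 (0.000532). Esrrb is given below. Sox2 RNA lay between 277 and 413 CPM and differed by 0.09 ± 0.08 (SE) on the log2 scale with auxin, averaged over phases (edgeR adjusted p = 0.527). The tag acts on the protein, which these data do not measure.

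Counts were found for 15 of the 37 genes, namely the 13 protein genes and both rRNAs. All 22 transfer RNAs had an estimated count of 0 in all 18 libraries, which at 3 counts per library allows up to 0.0798 CPM in the deepest library and 0.121 CPM in the shallowest, counting error only. Whether RNAs this short could enter the libraries or the authors' estimates was not tested. The 15 genes with counts all passed the filter on low counts that left 16011 genes for testing.

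The RNAs of complex IV dominated the mitochondrial set. In TPM, the authors' unit scaled to gene length and library, mt-Co3, a core subunit of cytochrome c oxidase, ranked first in 18 of 18 libraries, with a lowest value of 555, a median of 740 and a highest of 905. The catalytic subunit mt-Co1 ranged from 239 to 550 TPM around a median of 332, and mt-Co2, which carries the copper site that receives electrons from cytochrome c, ranged from 112 to 305 around 165. Together these 3 RNAs held 83.9% to 89.0% of the counts on the mitochondrial protein genes.

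Complex V contributes both ATP synthase subunits. The proton-channel subunit mt-Atp6 had a median of 49.4 TPM (31.2 to 88.4). Its overlapping upstream neighbour mt-Atp8 had a median of 112 TPM (52.1 to 179), a value that rests on only 39 to 150 counts, since 1 TPM of mt-Atp8 stood for 0.800 counts and 1 TPM of mt-Co1 for 219. The TPM of this very short gene is therefore raised by the length correction, and reads from the overlap can be assigned to either gene. For complex III, mt-Cytb, the cytochrome b subunit, had a median of 19.6 TPM (13.1 to 33.0).

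The 7 complex I subunits spread from the second rank to the last. The short membrane subunit mt-Nd3 had a median of 349 TPM (250 to 485), again with a small effective length of 17.4 counts per TPM. The other membrane-arm RNAs were far lower: mt-Nd1 had a median of 34.7 TPM, mt-Nd5 of 17.8, mt-Nd6 of 12.9, mt-Nd4 of 11.3, mt-Nd2 of 9.02 and mt-Nd4l of 3.80. For mt-Nd6, how the authors handled strand is not given in the sources used here, so its reads and antisense RNA of the facing strand cannot be told apart.

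The large rRNA mt-Rnr2 had a median of 250 TPM (137 to 632) and the small rRNA mt-Rnr1 of 40.02 TPM (19.7 to 120). In several places the order did not hold between libraries. mt-Nd3 exceeded mt-Co1 in 8 of 18 libraries, mt-Co1 exceeded mt-Rnr2 in 14, mt-Atp6 exceeded mt-Rnr1 in 8 and mt-Rnr1 exceeded mt-Nd1 in 12. The remaining neighbours in the order kept their places in 16 to 18 libraries.

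**Figure D1:**
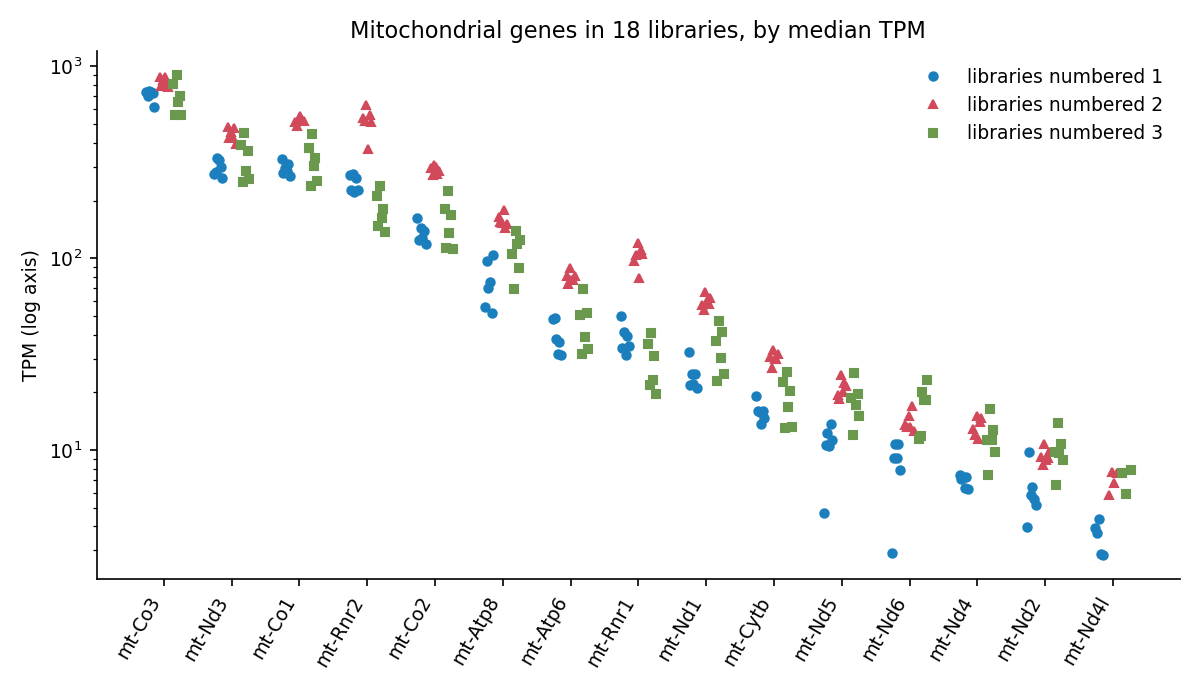
TPM of the 15 mitochondrial genes with counts (log axis, genes ordered by median), one point per library, with colour and shape giving the replicate number and values of 0 for mt-Nd4l left out. The mt-Co3 points lie above every other gene of the same library, and for the rRNAs, mt-Co2 and mt-Nd1 the libraries numbered 2 lie above those numbered 1 and 3.

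Of 7 listed nuclear copies of mitochondrial sequence only 2 had a row, and these touched 2 of the genes. Copies without a row could not be examined, so the other genes cannot be called free of them. mt-Nd4l, the smallest complex I membrane subunit, had a count of 0 in 6 of 18 libraries. In the other 12 its count equalled that of the nuclear gene model Gm10222 on chromosome 1 to within 1 count. Where mt-Nd4l stood at 0, Gm10222 had 73 to 156 counts; where it did not, Gm10222 had 27 to 71. The pair summed to 54 to 156 counts per library, so the counts of both entries cannot be told apart and the fold changes of mt-Nd4l alone are not interpreted. For mt-Atp6, the copy Gm10925, also on chromosome 1, took 88 to 340 counts, 2.33% to 5.72% of the pair.

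Mitochondrial RNA made up 0.577% to 1.19% of all counts, and the libraries numbered 2 stood apart. In early G1 without auxin the share was 0.785% in the library numbered 1, 1.11% in number 2 and 0.771% in number 3. With auxin, the same phase had 0.742%, 1.11% and 0.616%. Untreated late G1 libraries had 0.769%, 1.19% and 0.881%, and treated ones 0.789%, 1.05% and 0.691%. The library numbered 2 was again the highest in both. Untreated G2 libraries had 0.716%, 1.11% and 0.680%, and treated ones 0.691%, 1.10% and 0.577%. Number 2 was highest in all 6 groups, and no library numbered 1 or 3 reached the lowest of the 6. As group means over untreated libraries, the share was 0.889% ± 0.192 (SD, n = 3) for early G1, 0.946% ± 0.217 for late G1 and 0.836% ± 0.239 for G2, and 0.822% ± 0.254, 0.844% ± 0.186 and 0.790% ± 0.276 with auxin.

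**Figure D2:**
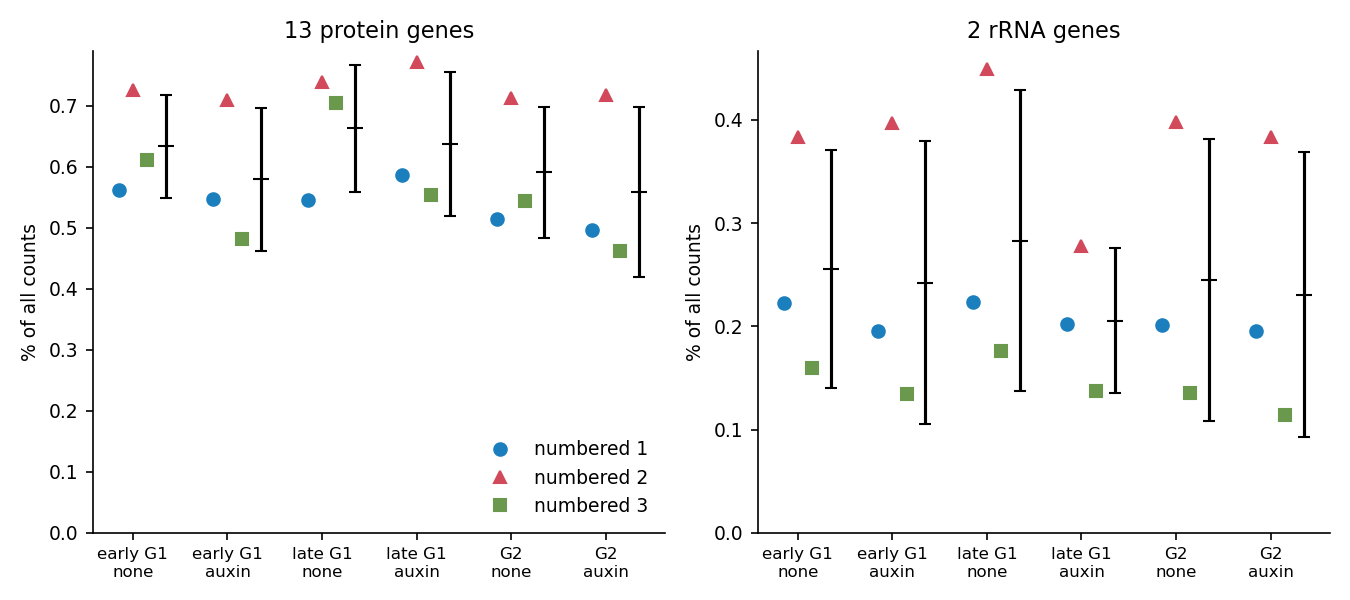
Percent of each library's counts on the 13 mitochondrial protein genes (left) and the 2 rRNA genes (right), by phase and treatment. Points are libraries marked by replicate number, and the black bar is the mean ± SD of 3 libraries. In each of the 6 groups the library numbered 2 is the highest in both panels.

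The excess in number 2 was uneven among the genes. mt-Rnr1 stood at 196, 318 and 119 CPM (libraries numbered 1, 2 and 3) in early G1 without auxin and at 145, 360 and 98.9 with auxin. In late G1 it stood at 170, 417 and 143 without auxin and 152, 289 and 102 with auxin, and in G2 at 149, 378 and 109 and at 156, 364 and 86.0. Number 2 was thus the highest throughout, with a median over the 6 groups of 2.80 times the mean of numbers 1 and 3. The same ratio was 2.21 for mt-Rnr2, 1.99 for mt-Atp8, 1.77 for mt-Nd1, 1.76 for mt-Co2, 1.60 for mt-Atp6, 1.51 for mt-Cytb and 1.48 for mt-Co1. It was 1.02 for mt-Co3, 1.05 for mt-Nd2 and 0.963 for mt-Nd6.

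Number 2 was highest in 6 of 6 groups for 9 of the 15 mitochondrial genes (mt-Rnr1, mt-Rnr2, mt-Co1, mt-Co2, mt-Atp6, mt-Atp8, mt-Cytb, mt-Nd1 and mt-Nd3), against 4.12% of all 16011 genes tested. A median ratio of at least 1.5 was reached by 8 of 15 (mt-Nd4l among them, at 1.75), against 2% of all genes. This grouping was chosen after the values were seen and has no test. The rRNA counts divided by the protein counts fell in separate ranges for numbers 1 (0.344 to 0.411) and 3 (0.246 to 0.279), and reached 0.527 to 0.608 in 5 of the 6 libraries numbered 2. The exception was late G1 with auxin, at 0.359, where mt-Rnr2 stood at 2537 CPM against 3302 to 4103 in the other 5. Nuclear-encoded subunits of complexes I to V did not follow: they summed to 9745 to 10420 CPM in the libraries numbered 2, 10170 to 11330 in number 1 and 8815 to 10090 in number 3. The 3 most abundant non-coding entries took 21.9% to 24.7% of counts in number 2 and 24.4% to 29.1% in the others. The part of that difference in the result was not tested.

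**Figure D3:**
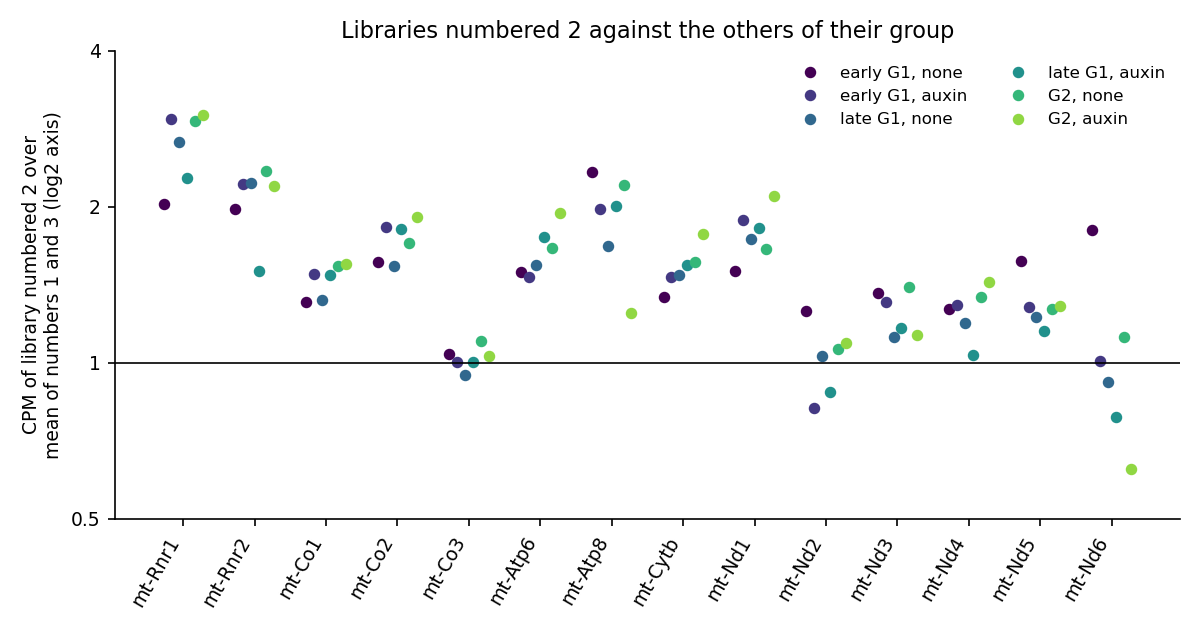
CPM of the library numbered 2 divided by the mean of the libraries numbered 1 and 3 of the same group (log2 axis), one point per group, for 14 mitochondrial genes (mt-Nd4l left out). The rRNAs, mt-Co2, mt-Atp6, mt-Nd1 and mt-Cytb lie above 1 in all 6 groups, while mt-Co3 lies near 1 throughout.

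The spread between replicates therefore differed by gene. The residual SD within groups on the log2 scale was 0.88 for mt-Rnr1, 0.70 for mt-Rnr2, 0.32 for mt-Co1 and 0.11 for mt-Co3, against a median of 0.21 over all genes tested. Once the replicate number was taken into account the SD was 0.17 for mt-Rnr1, 0.15 for mt-Rnr2 and 0.08 for mt-Co3. Nothing in the labels says that replicates came from separate cultures, so the p-values measure the spread between these libraries only. In sorted bulk samples, fewer mitochondria or cells and less RNA in each cannot be told apart.

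Without the replicate number as a block, no auxin difference in the 15 mitochondrial genes passed the test. At an adjusted p under 0.05 in edgeR's quasi-likelihood test, 0 of 15 were called for early G1 (0.106% of all genes tested were called), 0 for late G1 (1.02%), 0 for G2 (0.668%) and 0 for the average over phases (5.68%). At an unadjusted p under 0.05 the count was also 0 in each of the 4, as was the adjusted count in DESeq2 and in limma on log2 TPM without a block. With the block, edgeR again called 0 of 15 for early G1 (1.59% of all genes) and for late G1 (5.95%), but in late G1 both rRNAs had an unadjusted p under 0.05. mt-Rnr1 was at -0.40 ± 0.13 (SE; edgeR adjusted p = 0.0897) and mt-Rnr2 at -0.31 ± 0.10 (adjusted p = 0.0708). In that comparison DESeq2 with the block called 1 gene, mt-Rnr1 (7.21% of all genes), and limma on log2 TPM with the block called both rRNAs, each lower with auxin (5.36% of all genes). In late G1 mt-Rnr2 stood at 2132, 4103 and 1565 CPM untreated and 2035, 2537 and 1343 treated. mt-Rnr1 stood at 170, 417 and 143 untreated and 152, 289 and 102 treated. For both the largest fall was in number 2, whose treated library is the exception in rRNA over protein counts named above. Without the block, the smallest p in the average belonged to mt-Nd3, at -0.14 ± 0.10 (SE; edgeR adjusted p = 0.417). Its CPM were 165, 252 and 205 in untreated and 175, 224 and 167 in treated early G1 libraries. For late G1 they were 198, 251 and 250 untreated and 232, 245 and 189 treated, and for G2 167, 256 and 199 untreated and 175, 195 and 170 treated. The treated and untreated groups overlapped in each phase. Within single phases the smallest p belonged to mt-Nd6 for early G1 (0.54 ± 0.47, edgeR adjusted p = 0.867), to mt-Nd4l for late G1 and to mt-Nd3 for G2 (-0.20 ± 0.17, adjusted p = 0.843).

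Of the 15 genes, 11 had a negative and 4 a positive difference in the average, with a median log2 fold change of -0.07 beside 0.01 over all genes. The precision without the block varied widely. For mt-Co3 the difference was -0.0022 with a 95% interval of -0.12 to 0.12, for mt-Co1 it was -0.03 (-0.31 to 0.26) and for mt-Cytb -0.10 (-0.45 to 0.26). For mt-Rnr1 it was -0.19 (-1.08 to 0.70) and for mt-Rnr2 -0.16 (-0.85 to 0.52), where the spread between replicate numbers is part of the error. Lower with auxin in at least 7 of 9 pairs of equal number were 2 of 15 mitochondrial genes, both rRNAs, and 22.2% of all genes. With CPM of plain library totals in place of TMM scaling the count was 8 of 15 (also mt-Nd1, mt-Co2, mt-Atp6, mt-Nd3, mt-Nd4 and mt-Cytb), beside 32.3% of all genes, so the pattern of the rRNAs is not particular to them.

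As a share of counts, mitochondrial RNA was lower with auxin in 8 of 9 pairs of libraries with the same number, with a median ratio of 0.945 (0.784 to 1.03). The protein genes were lower in 6 of 9 (median ratio 0.971) and the rRNAs in 8 of 9 (0.879). As a share of TPM it was lower in 9 of 9 pairs, with a median ratio of 0.916. The largest falls were in number 3, with ratios of 0.784 to 0.847 by counts, against 0.884 to 1.03 in numbers 1 and 2. By TPM they were 0.658 to 0.781, against 0.889 to 0.946. Such a share moves with whatever else is in the library, and 1 entry alone held 50.5% to 62.4% of TPM. That entry was lowest in the untreated libraries numbered 3, at 50.5%, 50.7% and 54.6%. Its part in the falls was not tested. Log2 TPM put the median of all genes at -0.08 with auxin in the average (pseudocount 1), while the median of the 15 mitochondrial genes was -0.25. The shares carry no test.

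Whether the auxin difference varied between phases was tested directly. No mitochondrial gene was called for late against early G1, G2 against early G1 or G2 against late G1, and 0 of 15 had an unadjusted p under 0.05 in each. Of all genes tested 0% were called in the 3 tests. The adjusted p was 1 for every mitochondrial gene.

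Across the cell cycle, mt-Co3 was the mitochondrial RNA whose phase differences stood closest to the threshold. Untreated, it stood at 2203, 2216 and 2055 CPM for early G1, at 2318, 2249 and 2435 for late G1 and at 2089, 2183 and 1880 for G2. With auxin it stood at 2268, 2101 and 1909 CPM for early G1, at 2701, 2457 and 2198 for late G1 and at 2106, 2045 and 1862 for G2. On this TMM scale late G1 was above early G1 in each of the 6 pairs of equal number and above G2 in each of the 6; by plain library totals only the second held in all 6. On the TMM scale late G1 and G2 did not overlap under either condition, and late and early G1 overlapped with auxin only. By plain library totals late G1 (2084 to 2494 CPM) and G2 (1747 to 2113) overlapped with auxin. Untreated late G1 (2235 to 2513) then also overlapped early G1 (2220 to 2345). The share of all genes that separate in this way was not counted.

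In late G1 against early G1 without auxin, 0 of 15 mitochondrial genes were called, while 7.02% of all genes were. Without a block none had an unadjusted p under 0.05, and DESeq2 and limma also called 0. The median log2 fold change was 0.18, with 14 of 15 positive, beside 0.00 over all genes. The smallest p belonged to mt-Nd5, the large proton-pumping subunit of complex I, at 0.65 ± 0.36 (SE; edgeR adjusted p = 0.342). Its CPM were 40.8, 140 and 137 in early G1 and 113, 189 and 196 in late G1, so the difference rests largely on the library numbered 1 of early G1. Without that library it was 0.26 ± 0.25. The same library was low for mt-Nd6, at 4.48 CPM against 13.7 to 39.4 in the other 17, and for mt-Nd2, at 17.5 CPM against 23.6 to 54.4, while its mt-Co3 and mt-Co1 lay within the range of the other libraries. With the replicate number as a block, edgeR called 0 of 15, against 21.8% of all genes. In that fit 4 had an unadjusted p under 0.05, with the smallest for mt-Nd5 (edgeR adjusted p = 0.052).

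In late G1 against early G1 with auxin, 0 of 15 were called without a block (7.42% of all genes), with a median of 0.23 and 13 of 15 positive. Without a block DESeq2 and limma also called 0. One gene, mt-Co3, had an unadjusted p under 0.05, at 0.23 ± 0.10 (SE; edgeR adjusted p = 0.172). With the replicate number as a block, 2 of 15 rose, against 22.6% of all genes called in that fit. These were mt-Co3, at 0.23 ± 0.07 (adjusted p = 0.0195), and mt-Co1, at 0.25 ± 0.08 (adjusted p = 0.0301). mt-Co1 stood at 2188, 3097 and 1979 CPM in early G1 with auxin and 2539, 3665 and 2425 in late G1, higher in each of the 3 pairs although the groups overlapped. The blocked calls were lost without the libraries numbered 1 (adjusted p = 0.238 for mt-Co3 and 0.208 for mt-Co1), and without those numbered 2 (0.118 for both).

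G2 against late G1 gave the opposite sign. Without auxin 0 of 15 were called (5.04% of all genes) and 0 had an unadjusted p under 0.05, with a median of -0.20 and 14 of 15 negative. DESeq2 and limma without a block also called 0. mt-Co3 had the smallest p, at -0.19 ± 0.10 (SE; edgeR adjusted p = 0.337). With the replicate block edgeR also called 0 of 15, against 15.9% of all genes. In that fit 4 had an unadjusted p under 0.05, with the smallest for mt-Co2 (edgeR adjusted p = 0.0564). With auxin and without the block 0 of 15 were called (5.91% of all genes), with a median of -0.13 and 12 of 15 negative. Here 1 gene, mt-Co3, had an unadjusted p under 0.05, at -0.29 ± 0.10 (SE; edgeR adjusted p = 0.0913). The mt-Co3 call changed with the test. DESeq2 called it (adjusted p = 0.0262, with 8.46% of all genes called), and so did edgeR with the replicate block, where it fell by 0.29 ± 0.07 (adjusted p = 0.00461) among 17.7% of all genes called. The blocked call was lost without the libraries numbered 1 (adjusted p = 0.178) or those numbered 2 (0.0586).

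By median log2 fold change, G2 and early G1 were closest. As a share of counts, however, mitochondrial RNA was lower in G2 than in early G1 in 5 of 6 pairs of equal number (median ratio 0.933). Without auxin 0 of 15 mitochondrial genes were called (3.6% of all genes) and the median was 0.00. With auxin 0 were called (3.88% of all genes) and the median was 0.04. Without a block 0 genes had an unadjusted p under 0.05 in each comparison, and DESeq2 and limma called 0. With the block edgeR called 0 in each (14.7% of all genes without auxin, 15.2% with it). In that fit 2 of 15 had an unadjusted p under 0.05 without auxin, and 0 with it. Without the block mt-Nd6 had the smallest p in both, at 0.79 ± 0.47 (SE; edgeR adjusted p = 0.428) without auxin and 0.37 ± 0.46 (edgeR adjusted p = 0.739) with auxin.

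**Figure D4:**
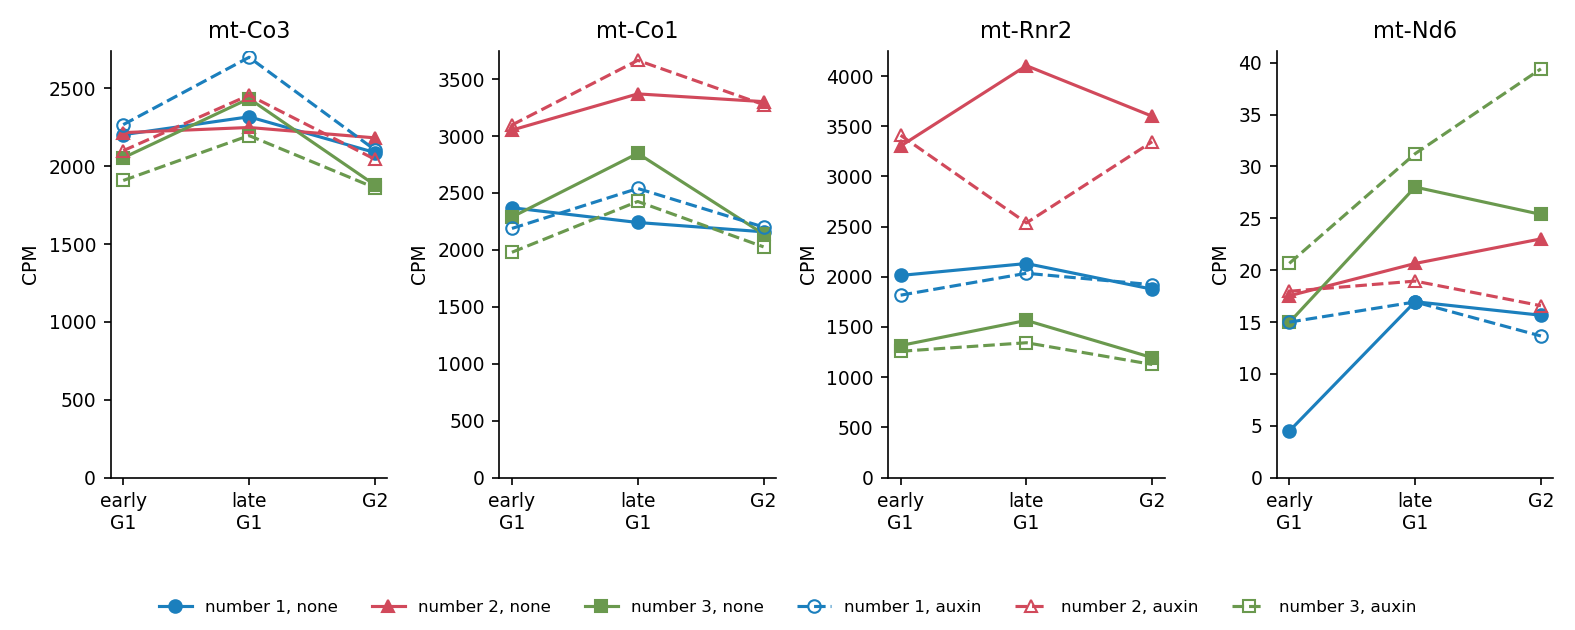
TMM-scaled CPM of mt-Co3, mt-Co1, mt-Rnr2 and mt-Nd6 in early G1, late G1 and G2, with lines joining libraries of equal number (solid without auxin, dashed with auxin). For mt-Co3 all 6 lines peak in late G1, whereas for mt-Rnr2 the lines are set apart by number and for mt-Nd6 the library numbered 1 of early G1 without auxin is the lowest, at 4.48.

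Counted over pairs of equal number, 4 of 15 genes were higher in late than in early G1 in 6 of 6 pairs (mt-Co3, mt-Nd4, mt-Nd5 and mt-Nd6), beside 20.6% of all genes, a share close to theirs. Lower in G2 than in late G1 in 6 of 6 pairs were 5 of 15 (mt-Co1, mt-Co2, mt-Co3, mt-Atp6 and mt-Nd1), beside 16.2% of all genes. By plain library totals the counts were 1 of 15 (mt-Nd5), beside 11.2% of all genes, and 3 of 15 (mt-Co1, mt-Co2 and mt-Co3), beside 14% of all genes. As a share of counts, the protein genes were lower in G2 than in late G1 in 6 of 6 pairs, with a median ratio of 0.887, and higher in late than in early G1 in 5 of 6 (1.08). They were also lower in G2 than in early G1 in 5 of 6 (0.938).

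**Figure D5:**
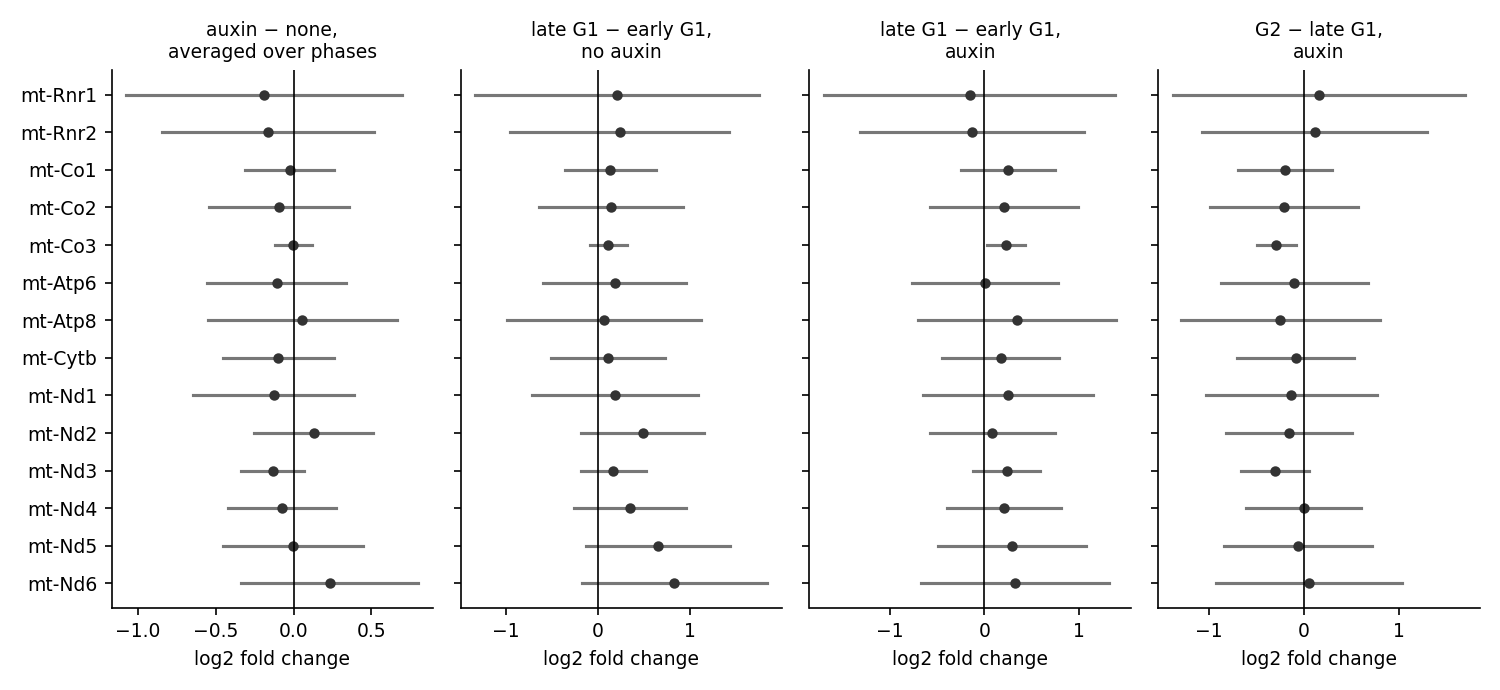
Log2 fold change (point) and 95% interval (line) from edgeR without the replicate block for 14 mitochondrial genes (mt-Nd4l left out), for auxin against none averaged over phases, late against early G1 without and with auxin, and G2 against late G1 with auxin. The rRNAs have the widest intervals and mt-Co3 the narrowest, and only mt-Co3 has intervals clear of 0, in both phase comparisons with auxin.

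The nuclear-encoded partners were examined from lists of genes. Without the replicate block, none of the 77 tested nuclear subunits of complexes I to V was called in any phase or auxin comparison. Of these, 73 of 77 were positive with auxin in the average, with a median of 0.12, but on log2 TPM only 3 of 77 were positive, with a median of -0.08. Without the untreated libraries numbered 3 the median was 0.03, with 55 of 77 positive. From early to late G1 the same 77 had a median of 0.14 without auxin (76 positive) and 0.17 with it (77 positive), and 70 and 73 remained positive on log2 TPM. In that comparison with auxin 15 of 77 rose with the replicate block, where 22.6% of all genes were called. The 77 tested proteins of the mitochondrial ribosome likewise had 0 calls in each without the block. Their median with auxin in the average was 0.10 on counts and -0.10 on log2 TPM. With the block 23 were called higher and 0 lower in that average, beside 24.6% of all genes. For late against early G1 it called 11 higher without auxin (21.8% of all genes) and 14 with it (22.6%), and 0 lower.

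For transcription of the mitochondrial genome, 12 of 21 listed genes had a row and were tested. Without the replicate block 0 were called for auxin. Polrmt differed by -0.18 ± 0.07 (SE, edgeR adjusted p = 0.124) and Tfam by 0.11 ± 0.06 (adjusted p = 0.316) in the average. With the block 2 of 12 were called lower in the average, among them Polrmt (edgeR adjusted p = 0.0369), beside 24.6% of all genes. The numbers do not meet the pairing rule there. For late against early G1 without auxin Tfam was called with the block only (0.25 ± 0.07, edgeR adjusted p = 0.0116), beside 21.8% of all genes. Peo1, the helicase Twinkle that unwinds mitochondrial DNA for replication, was lower in G2 than in late G1, by -0.37 ± 0.08 without auxin (edgeR adjusted p = 0.00955) and -0.40 ± 0.08 with it (0.00435), and than in early G1 with auxin, by -0.38 ± 0.08 (0.0108). In these comparisons 5.04%, 5.91% and 3.88% of all genes were called. None of these Peo1 calls was made on log2 TPM, where the differences were -0.25, -0.29 and -0.30.

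Among 7 tested of 9 listed regulators of mitochondrial biogenesis, 2 fell with auxin in the average, where 5.68% of all genes were called. Pprc1, a PGC-1-related coactivator, fell by 0.45 ± 0.10 (edgeR adjusted p = 0.0123), and Esrrb, an orphan nuclear receptor that is also a pluripotency factor, fell by 0.24 ± 0.07 (0.0477). Pprc1 stood at 86.3, 101 and 88.0 CPM in the untreated libraries numbered 3, at 56.7 to 78.7 in the other untreated ones and at 48.0 to 71.8 with auxin. Without those 3 libraries neither was called, at -0.29 ± 0.09 (adjusted p = 0.073) and -0.23 ± 0.08 (0.13).

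Nrf1, a transcription factor of nuclear genes for respiration, was higher in late G1 and in G2 than in early G1. Untreated, it stood at 47.4 to 53.0 CPM for early G1, 61.9 to 64.2 for late G1 and 67.3 to 70.8 for G2, with no overlap. Against early G1 it was higher by 0.32 ± 0.08 for late G1 (edgeR adjusted p = 0.0158) and by 0.45 ± 0.08 for G2 (0.00244). With auxin the differences were 0.36 ± 0.08 (0.00691) and 0.45 ± 0.08 (0.00224), and late G1 (67.2 to 71.9 CPM) and G2 (70.7 to 79.9) overlapped. G2 against late G1 was not called without auxin (0.13 ± 0.08, edgeR adjusted p = 0.43) or with it (0.09 ± 0.08, 0.624). Scaled by library total, the late G1 calls were lost (adjusted p = 0.115 and 0.0598), and on log2 TPM all 4 were. Without the untreated libraries numbered 3, the late G1 call without auxin was also lost (0.0516).

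Of 29 listed genes of mitochondrial RNA processing and stability, 23 had a row and were tested. With auxin averaged over phases, 1 was called higher and 1 lower, beside 5.68% of all genes called. In the auxin average Trmt61b, an RNA methyltransferase of mitochondria, fell by 0.38 ± 0.09 (edgeR adjusted p = 0.0222). Hsd17b10, a subunit of the enzyme that cuts the 5′ ends of mitochondrial transfer RNAs, rose by 0.21 ± 0.06 (0.0408) but stood at 0.00 on log2 TPM. Both calls were lost without the untreated libraries numbered 3 (0.0864 and 0.163). Fastkd1, of a family of mitochondrial RNA-binding proteins, was lower in late than in early G1, by -0.32 ± 0.08 without auxin (edgeR adjusted p = 0.0168) and -0.39 ± 0.08 with it (0.00457). It was higher again in G2 than in late G1, by 0.32 ± 0.08 (0.0208) and 0.34 ± 0.08 (0.0126). Of its relatives, Fastkd5 rose from early to late G1 with auxin, by 0.41 ± 0.09 (edgeR adjusted p = 0.00677), and Fastkd3 fell from late G1 to G2 without auxin, by 0.33 ± 0.09 (0.0397). Of all genes, 7.02% and 7.42% were called for late against early G1 without and with auxin. For G2 against late G1 the shares were 5.04% and 5.91%. None of these Fastkd calls was made on log2 TPM. Without the untreated libraries numbered 3, the calls for G2 against late G1 without auxin were lost for Fastkd1 (0.0623), Fastkd3 (0.159) and Peo1 (0.0603).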

How the data were processed

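RNA from 18 libraries, 3 per group, was analysed. Groups and replicate numbers came from the sample titles. The authors deposited expected counts per gene, which the values show as whole numbers, and TPM with 2 decimals. The submitters' processing notes list STAR, RSEM and mm9, and give neither version nor role. Profile values around genomic sites were not used here. Members are the rows whose symbol starts with mt-. Members and gene lists were chosen with earlier results of these data known. Genes were filtered with filterByExpr by group, scaled by TMM and tested with edgeR 4.0.16 (R 4.3.3) by a robust quasi-likelihood F test with 1 mean per group over the 18 libraries and Benjamini-Hochberg adjustment over 16011 genes and calls at an adjusted p under 0.05. The biological coefficient of variation was 0.142. CPM use TMM-scaled totals, but marker and subunit sums and shares use plain totals. The SE is the size of the log2 fold change over the square root of F. Alternatives used DESeq2 1.42.0 and limma 3.58.1 on log2(TPM + 1) and log2(TPM + 0.1). The test was checked on simulated counts that held no effect of the replicate number, so the check does not cover the spread shared by libraries of equal number. Fold changes and p-values are given for each member called, or else for the smallest p, and for up to 4 called genes per list, with Sox2, Polrmt and Tfam. Of the marker lists, only ES cell markers called for auxin in the average are given.

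Replicate numbers were taken to pair libraries where, after centring each group, every pair of equal number correlated over 0.1. The rule was met by the auxin comparisons of early G1 (0.26 to 0.29) and late G1 (0.22 to 0.29) and by the 6 phase comparisons (lowest 0.19), but not by auxin in G2 or the average (lowest 0.053). All 18 libraries correlated best with their own number. The main fit nevertheless held no block in any comparison, also where the rule was met. The fit with the replicate number as a block was an alternative. Results for nuclear genes are without the block unless it is named. Of the 37 members, 37 matched the mitochondrial rows of the RefSeq gene table by symbol; its assembly differs from mm9, so it gave names and neighbours only. Totals of 24841963 to 37587322 counts set the precision, and floors of 3 counts cover counting error only.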

Additional observations from a re-analysis of the deposited data

How the results depend on the processing

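Over 13 comparisons and 38 alternative settings, 368 recounts of the 15 mitochondrial genes were made and 23 held a call. Without a replicate block the count was 0 under every scaling, filter and left-out library, except for 1 (mt-Co3) in DESeq2 for G2 against late G1 with auxin. With the replicate block in edgeR, 2 were called for late against early G1 with auxin, 1 for G2 against late G1 with auxin and 1 for the auxin average (mt-Rnr1, at -0.23 ± 0.07, adjusted p = 0.0384); it changed no other count. The numbers do not meet the pairing rule for the average, where the block also called 35 of the 77 nuclear subunits higher and 24.6% of all genes. Its mt-Rnr1 call was lost without number 1 (adjusted p = 0.066) or 3 (0.462). DESeq2 with the block called 1 for auxin in late G1, 1 in the average, 3 for late against early G1 without auxin, 2 with auxin, 1 for G2 against early G1 without auxin, 2 for G2 against late G1 without auxin and 3 with auxin. limma on log2(TPM + 1) with the block called 2 for auxin in late G1, 10 in the average, all lower, and 1 for late against early G1 without auxin; in that average 7264 of all genes were called lower and 280 higher. Where these added settings held calls, 4.54% to 47.1% of all genes were called. The block with library totals called 2 in the average and 1 for G2 against late G1 with auxin. The settings that pair a block with another tool or scaling, those that leave out a whole replicate number, and the pair counts by plain library totals (where number 2 was highest in every group for 8 of 15 genes, without mt-Nd3) were chosen after seeing the data. Leaving out libraries or a replicate number, with and without the block, gave 0 to 1 calls for auxin in late G1, 0 to 2 in the average, 0 to 2 for late against early G1 without auxin, 0 to 3 with it and 0 to 3 for G2 against late G1 with auxin. In the same fits the sign turned for mt-Rnr1 in the average (-0.435 to 0.0528) and for mt-Nd6 in G2 against early G1 with auxin (-0.24 to 0.647, with -0.127 with the block and without number 3); the cause was not tested. On log2 TPM the 15 had a median of -0.25 with auxin (pseudocount 1) and -0.27 (0.1), where all genes had -0.08 and -0.16. The spread between replicate numbers widens the unblocked intervals of the rRNAs and of mt-Atp8, which also has few counts.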

Other observations

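In TPM, the balance of mt-Co3 and mt-Rnr2 moved with the replicate number more than with phase or auxin. For the 2 rRNAs, mt-Rnr2 over mt-Rnr1 had means of 6.51, 5.08 and 6.40 in numbers 1, 2 and 3. Over the 6 groups its means ran from 5.6 to 6.3. mt-Rnr2 over mt-Rnr1 was 5.47 to 7.12 in number 1, 4.69 to 5.54 in number 2 and 5.85 to 6.99 in number 3. In number 3 it was 5.85 to 5.92 without auxin and 6.76 to 6.99 with it, while in number 2 it was lower with auxin in each phase. mt-Co3 over mt-Rnr2 ranged from 1.34 to 2.39 in the 6 libraries numbered 2, from 2.70 to 3.29 in those numbered 1 and from 3.76 to 4.08 in those numbered 3, so the 3 numbers did not overlap. mt-Co1 held 44.4% to 47.1% of mitochondrial protein counts in number 2 and 39.9% to 42.4% in numbers 1 and 3. These values have no test.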
